A study of Drosophila melanogaster with 4 samples.

Results

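The heterochromatic sequence of Drosophila melanogaster chromosome 3 that lies outside the continuous arms is held in 2 scaffolds of FlyBase release 5, 3LHet and 3RHet, and the regions bound there by the chromatin protein HP4 are described here. The members are all regions of the authors' combined list whose sequence name is 3LHet or 3RHet. There are 445 of 4366 regions in that list, 251 on 3LHet (2555491 bp long) and 194 on 3RHet (2517507 bp long). The list made from ChIP replicate 1 holds 503 regions on the same scaffolds, of 2703 in all, and that from replicate 2 holds 489, of 2674. HP4 had been immunoprecipitated with the antibody Q4072 from formaldehyde-fixed, wild-type Oregon-R whole embryos aged 14 to 16 h, in 2 ChIP libraries, each with an input library of its own. All libraries share that strain, stage and genotype, so no treated group exists, and a whole-embryo profile averages over all cell types. No value of an input library was analysed here. Read depth is unknown from the region lists, so the counting error behind a region cannot be given. The labels do not state whether replicates 1 and 2 came from different collections of embryos, and the replicate SD may thus be technical. With 2 replicates an exact two-sided sign-flip test cannot go below p = 0.5, so differences are set against the SD between replicates (n = 2) and carry no test.

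Heterochromatin is the condensed, repeat-rich part of the genome that surrounds the centromeres and replicates late. In flies its nucleosomes carry methylated histone H3 lysine 9, which is bound by the protein HP1. HP4, also named Hip, is known as a partner of HP1 and takes its name from that association. The Het scaffolds of release 5 were assembled from sequence that could be assigned to a chromosome but not joined to the continuous arm. They are rich in transposon remains, so many reads from them fit more than 1 position, and assembly gaps within them cannot hold a region. How the authors placed such reads is not stated in the labels or the file headers. The sequence of the scaffolds was not used here, and repeats, gaps and genes inside the regions were not examined.

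More than 50% of each scaffold lay in HP4 regions in both replicates. Replicates 1 and 2 covered 57.9% and 59.2% of 3LHet, a mean of 58.6% ± 0.888 (SD, n = 2). On 3RHet they covered 55.1% and 56.1%, a mean of 55.6% ± 0.695. The replicate values of the scaffolds did not overlap, and 3LHet was the higher by 2.94 ± 0.193 percentage points within a library. Together the scaffolds made up 3.63% of the sequence length but held 25.3% of the covered bases of replicate 1 and 24.8% of those of replicate 2, which is 2.87 and 2.93 Mb. In the combined list the share was lower, at 20.1% of the covered bases, which is 3.54 Mb. The other Het scaffolds compared here were 2LHet, 2RHet and XHet, and no further one was examined. The nearest of these, 2RHet, was covered over 46.3% and 47.7%, below either chromosome 3 scaffold in both replicates.

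The number and width of the regions also differed between the scaffolds. 3LHet carried more regions, 281 and 265 in replicates 1 and 2, or 107 ± 4.43 per Mb. 3RHet carried 222 and 224, or 88.6 ± 0.562 per Mb. Region density over the full scaffold length was therefore higher on 3LHet in both replicates. Stretches of 20 kb or more without a replicate region made up 4.85% of 3LHet and 16.0% of 3RHet. They lower the density of 3RHet more, and density outside them was not computed. Mean and median width were higher on 3RHet in both replicates. In the combined list the median width was instead the higher on 3LHet, at 4909 bp against 4581 bp. The mean width was 5270 and 5709 bp on 3LHet in replicates 1 and 2, and 6253 and 6308 bp on 3RHet. The medians lay closer together, at 3571 and 3583 bp on 3LHet and 3907 and 4104 bp on 3RHet, and the upper quartile of width was 6158 and 7113 bp on 3LHet and 7729 and 8552 bp on 3RHet. The single widest replicate region went the other way, at 34827 and 35437 bp on 3LHet against 34125 and 26121 bp on 3RHet. Spaces between neighbouring regions were short on both: 30.5% ± 1.33 of them were under 1 kb on 3LHet and 33.6% ± 0.742 on 3RHet, with median spaces of 2218 ± 111 bp and 1855 ± 280.0 bp.

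In the replicate lists, regions of 10 kb or more marked the contrast most clearly. On 3RHet there were 45 in replicate 1 and 48 in replicate 2, which is 20.3% and 21.4% of its regions. On 3LHet there were 35 and 39, which is 12.5% and 14.7% of its regions. Over the whole lists 7.92% of replicate 1 regions and 8.68% of replicate 2 regions were that wide, so both scaffolds lay above the share over all sequences, 3RHet more than 3LHet. Among the other Het scaffolds compared, 2RHet, at 11.3% and 9.15%, and 2LHet, at 8.11% and 5.71%, lay below both chromosome 3 scaffolds in either replicate. XHet, with only 7 and 4 regions, lay above them at 28.6% and 75%. The wide regions held 52.6% ± 0.619 of the covered bases of 3RHet and 40.2% ± 2.31 of those of 3LHet. In the combined list the shares of regions that wide were close, 25.1% on 3LHet and 26.3% on 3RHet. Their shares of the covered bases still differed there, at 58.9% and 68.9%. At the other end of the range, regions under 2 kb were 21.4% and 18.9% of the regions of 3LHet but only 6.71% and 5.34% of its covered bases. On 3RHet they were 19.8% and 15.6% of the regions and 5.05% and 4.01% of the bases.

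**Figure D1:**
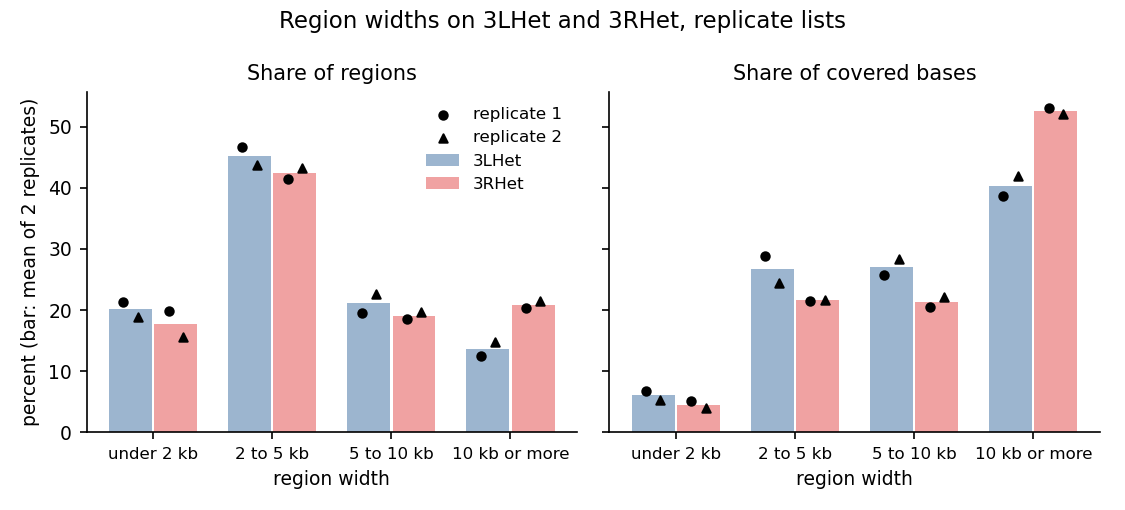
Regions of the replicate lists in 4 width classes on 3LHet and 3RHet, as a percentage of the regions of the scaffold (left) and of its covered bases (right). Bars are means of 2 replicates and symbols are the single replicates; in the class of 10 kb or more the 3RHet symbols lie above the 3LHet symbols in both panels, at 52.1% and 53.0% of the covered bases against 38.6% and 41.9%.

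HP4 coverage varied less from window to window along 3LHet than along 3RHet. In windows of 100 kb, numbered from the first base of the scaffold, mean coverage of 3LHet ran from 31.0% to 79.5% with a median of 57.6%, and 21 of its 26 windows were over 50% covered in both replicates. On 3RHet it ran from 0% to 91.4% with a median of 56.7%, and 18 of 26 windows passed 50% in both replicates. The scaffolds thus had like medians but a different spread, the SD over windows being 12.3 percentage points on 3LHet and 23.2 on 3RHet. No window of 3LHet was under 30% in both replicates, whereas 4 windows of 3RHet were. These were windows 4 and 5 and the last ones, 25 and 26, which held no replicate region. Window 26 is only 17507 bp long but counts as 1 window, so the wider spread on 3RHet rests in part on its empty end.

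The densest stretch of 3RHet was window 16, from 1500001 to 1600000, which was 88.6% covered in replicate 1, 94.3% in replicate 2 and 98.8% in the combined list. Window 13 followed, at 85.5% and 82.7%, then window 15 at 78.3% and 82.8% and window 7 at 79.9% and 79.5%. Window 11, between these, was less covered at 43.2% and 42.3%. Windows 4 and 5, from 300001 to 500000, formed a trough in which replicates 1 and 2 covered 22.5% and 26.7% and then 24.0% and 24.9%. Both neighbours of the trough were far higher, window 3 at 73.4% and 75.3% and window 6 at 53.9% and 55.9%.

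On 3LHet the densest windows by mean were window 5, from 400001 to 500000, at 78.4% and 80.7%, and window 21 at 74.2% and 82.3%. Window 4 came next, at 76.8% in each replicate. The lowest full window was 24, from 2300001 to 2400000, at 28.4% and 33.6%, and window 2 was next at 35.2% and 39.5%. The shorter last window, from 2500001 to the scaffold end, was the one on which the replicates differed most, at 40.8% and 25.3%. Elsewhere the replicates drew nearly the same profile: their coverage differed by under 5 percentage points in 21 of 26 windows of each scaffold, with median differences of 2.62 points on 3LHet and 2.19 on 3RHet. Across the 26 windows Pearson's r between replicates was 0.935 on 3LHet and 0.988 on 3RHet, a description only, since neighbouring windows share regions and the 2 empty windows of 3RHet raise the latter.

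**Figure D2:**
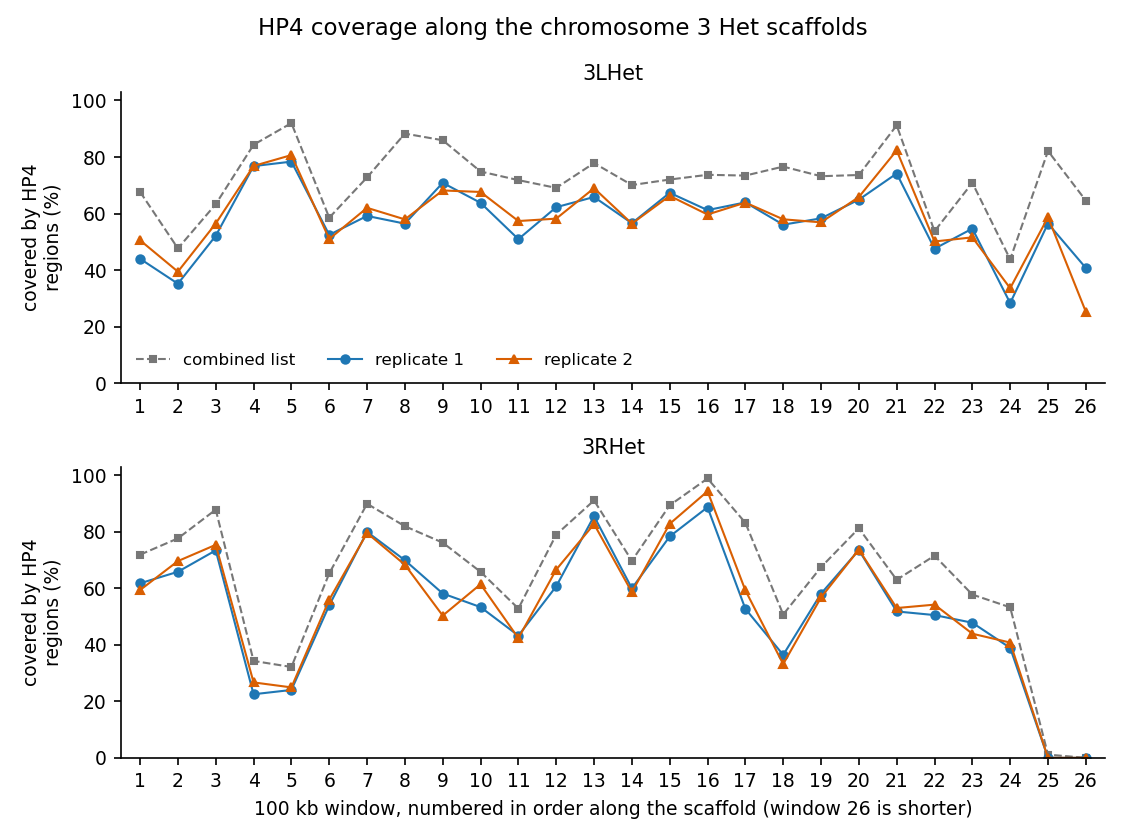
Percentage of each 100 kb window covered by HP4 regions in replicate 1, replicate 2 and the combined list, along 3LHet (top) and 3RHet (bottom), with windows numbered from the start of each scaffold. Replicate lines nearly coincide; 3LHet stays above 25% throughout, while 3RHet peaks at 88.6% and 94.3% in window 16, dips under 27% in windows 4 and 5 and has no replicate region in windows 25 and 26.

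Long stretches without a called HP4 region were found on both scaffolds. On 3RHet the last 157 kb of the scaffold, from 2360871 to 2517507, held no region of either replicate. The combined list placed 1 region there, from 2444826 to 2445959, which was 1134 bp wide, scored 0.47 and was the last region of the scaffold. 3LHet had no such empty end: its last replicate region stopped 3.47 kb before the end in replicate 1 and 16.9 kb before it in replicate 2. At their starts both scaffolds were bound almost from the first base, with the first combined region at 25 to 1936 on 3LHet (score 1.09, and 1.13 and 1.28 in replicates 1 and 2) and at 5 to 13060 on 3RHet (1.32, and 1.45 and 1.40).

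Inside the scaffolds the longest stretch free of all 3 lists was on 3RHet, 83.9 kb from 2360943 to 2444825, within that empty end. The second was 76.2 kb from 445963 to 522112 and the third 71.5 kb from 2445960 to the scaffold end. The fourth, 49.9 kb from 316981 to 366834, lies in window 4, within the trough described above. The 76.2 kb stretch begins in that trough, in window 5, and ends in window 6. On 3LHet the longest free stretches were shorter: 47.2 kb from 2328377 to 2375598, 29.4 kb from 2160875 to 2190298 and 24.3 kb from 1456929 to 1481187, the last within window 15, which was 66.8% covered on average and so not a low window. Counting stretches of 20 kb or more without a replicate region, 3RHet had 7 with a total of 404 kb, or 16.0% of its length. 3LHet had 4 with a total of 124 kb, or 4.85%. Whether these stretches are assembly gaps, unmappable repeats or unbound sequence was not tested.

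The order of the scaffolds by coverage depended on the length taken as denominator. Over the span of the regions of any list 3LHet was the higher by 1.21 and 1.46 percentage points in replicates 1 and 2. Over the span from the first to the last replicate region, coverage was 58.7% ± 0.889 on 3LHet and 59.3% ± 0.741 on 3RHet, and 3RHet was then the higher by a small margin in both replicates (3LHet minus 3RHet, -0.78 and -0.57 percentage points). Outside the stretches of 20 kb or more, coverage was 61.6% ± 0.933 on 3LHet and 66.3% ± 0.828 on 3RHet (difference -4.71 ± 0.106 points). Both of these denominators were chosen after the values were seen and are set by where regions are absent, so they favour the scaffold with more free sequence by construction and show only how much of the full-length difference rests on it. In the upper 50% of each list by score 3RHet was also the higher, at 36.1% ± 0.112 against 33.4% ± 0.280.

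High-scoring regions made up more of the bound sequence on 3RHet. The score is the authors' own value for a region, on a scale that is not stated, and it ranks regions within a list. Regions in the upper 50% of the replicate 1 list by score were 42.0% of those on 3LHet and 44.6% of those on 3RHet, against 50.0% over that list. In replicate 2 they were 38.9% and 46.0%, again against 50.0%. Both scaffolds thus held fewer top-scoring regions than the lists as a whole, yet these were wide. They carried 57.2% and 56.7% of the covered bases of 3LHet and 65.4% and 64.5% of those of 3RHet. Median scores were 1.16 and 1.10 on 3LHet and 1.18 and 1.17 on 3RHet, a difference (3LHet minus 3RHet) of -0.04 ± 0.03 that is close to the replicate spread.

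Median score was higher in each wider class of the replicate lists. In replicate 1 the median score on 3LHet was 0.80 for regions under 2 kb, 1.12 at 2 to 5 kb, 1.32 at 5 to 10 kb and 1.39 at 10 kb or more. On 3RHet it was 0.96, 1.03, 1.28 and 1.44. Replicate 2 gave the same order on both scaffolds, from 0.79 to 1.38 on 3LHet and from 0.90 to 1.37 on 3RHet. The combined list gave it on 3LHet but not on 3RHet, where the median was 0.85 under 2 kb and 0.82 at 2 to 5 kb. The extremes did not follow this trend, since the highest single scores belonged to narrow regions. The median width of the 10 highest-scoring regions of 3LHet was 2115 bp in replicate 1 and 2143 bp in replicate 2, and on 3RHet it was 3249 and 3437 bp. Spearman's rho of width with score, across regions that are not independent, was 0.43 and 0.47 on 3LHet and 0.49 and 0.46 on 3RHet.

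The widest regions of both scaffolds that both replicates overlapped all scored above the combined-list median of their scaffold, 1.04 on 3LHet and 1.05 on 3RHet, and below its highest scores. The widest of the combined list on 3RHet ran 84.4 kb from 1496294 to 1580711 and scored 1.44. It lies mostly in the densest window, and replicates 1 and 2 each broke it into 7 regions, which covered 90.8% and 96.5% of it. The next 4 on 3RHet were 58.2 kb from 1282920 to 1341153 (score 1.38), 56.4 kb from 1436846 to 1493217 (1.445), 55.2 kb from 600905 to 656153 (1.54) and 52.5 kb from 2270694 to 2323205 (1.20). The 56.4 kb and 84.4 kb regions are neighbours with 3.08 kb between them, in windows 15 and 16.

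On 3LHet the widest region was 60.4 kb, from 380268 to 440632, with a score of 1.24. Replicates 1 and 2 each held it as 4 regions that covered 94.7% and 93.8% of it. The region of 32.3 kb from 347624 to 379947 (score 1.22) ends 320 bp before it. That of 32.1 kb from 477646 to 509699 (score 1.39) begins in the dense window 5 and ends in window 6. A region of 37.0 kb from 1608326 to 1645343 (score 1.35) was the widest that each replicate called in 1 piece, with scores of 1.39 and 1.38. The fifth was 27.3 kb from 821750 to 849005 (score 1.40), which replicate 1 held in 3 pieces and replicate 2 in 4. When regions of a replicate list under 5 kb apart were joined, the widest block on 3LHet ran from 342824 to 509701 in replicate 1 and from 342745 to 509467 in replicate 2, 167 kb in each. It contained 18 regions in replicate 1 and 16 in replicate 2. On 3RHet the widest such block was 166 kb from 1437212 to 1603604 in replicate 1 and 182 kb from 1424331 to 1606414 in replicate 2.

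The highest-scoring regions held by both replicates included narrow peaks and a few broad ones. On 3LHet the first was 2550 bp from 515459 to 518008, with a combined score of 2.08 and replicate scores of 1.82 and 2.24. The second, 4357 bp from 2090536 to 2094892, scored 2.07, with 2.41 in replicate 1 and 1.90 in replicate 2. The replicates disagreed on which of these was the stronger. The third, from 114643 to 116974, scored 1.99 with 2.14 and 2.08 in the replicates, and the fifth, from 1510251 to 1514695, scored 1.95 with 1.96 and 1.92. The fourth was broad, 24.3 kb from 1400644 to 1424905, with a combined score of 1.99 and replicate scores of 2.03 and 1.96. It was 1 region in each replicate and combined great width with a high score.

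On 3RHet the first was 4708 bp from 1053173 to 1057880, with a combined score of 1.91 and replicate scores of 1.94 and 1.87. Broad regions took the next 3 ranks. The second was 30.4 kb from 1625245 to 1655669 (score 1.89), held as 3 regions in replicate 1 and 4 in replicate 2, whose own scores ran from 1.18 to 2.27 and from 0.94 to 2.18. The third was 14.7 kb from 1783100 to 1797769 (1.81, with 1.78 and 1.84). The fourth was 26.8 kb from 2080116 to 2106888 (1.80), in which each replicate had 1 region of high score, 1.98 and 1.89, beside 1 of low score, 0.71 and 0.88. The fifth was narrow, 2436 bp from 853201 to 855636, with a score of 1.71 and replicate scores of 1.77 and 1.54.

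Nearly all replicate regions on the scaffolds recurred in the other replicate. Of the replicate 1 regions, 92.2% on 3LHet (Wilson 95% interval 88.4% to 94.8%, counting error only) and 90.5% on 3RHet (86.0% to 93.7%) shared at least 1 bp with a region of replicate 2, against 82.8% over the whole list. Of the replicate 2 regions, 91.7% on 3LHet and 90.6% on 3RHet overlapped one of replicate 1, against 79.7% over the whole list. Overlap by chance is likelier where coverage is high, and no chance share was computed. Requiring 50% of the region to be covered left 86.8% on 3LHet and 86.9% on 3RHet of the replicate 1 regions (whole list 78.3%) and 85.3% and 86.6% of the replicate 2 regions (74.6%). By bases, 90.2% of the replicate 1 coverage of 3LHet and 91.5% of that of 3RHet was also covered in replicate 2.

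Region borders were placed close to each other in the replicates. There were 156 regions on 3LHet and 117 on 3RHet that overlapped exactly 1 region of the other replicate in both directions. Their starts differed by a median of 206 bp on 3LHet and 262 bp on 3RHet, and their ends by 248 and 195 bp. Both borders agreed within 500 bp for 49.4% of these pairs on 3LHet and 53.8% on 3RHet, and the largest border difference was 3242 bp. In the remaining matches a region of one replicate was split in the other: 30 replicate 1 regions of 3LHet overlapped 2 or more replicate 2 regions, and 44 replicate 2 regions overlapped 2 or more of replicate 1. On 3RHet the numbers were 33 and 35.

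The scores of overlapping replicate regions were also close. Their median absolute difference was 0.12 over 290 overlapping pairs on 3LHet and 0.11 over 240 on 3RHet. Replicate 1 was the higher in 167 of 290 pairs on 3LHet and 143 of 240 on 3RHet, with median differences of 0.04 and 0.03. Spearman's rho was 0.77 on 3LHet and 0.70 on 3RHet, and it was 0.90 over 193 pairs and 0.87 over 160 pairs that shared 50% of both regions. These are descriptions across regions, which share their libraries and are not replicates. The largest disagreement was 1.72 on 3LHet and 1.10 on 3RHet.

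**Figure D3:**
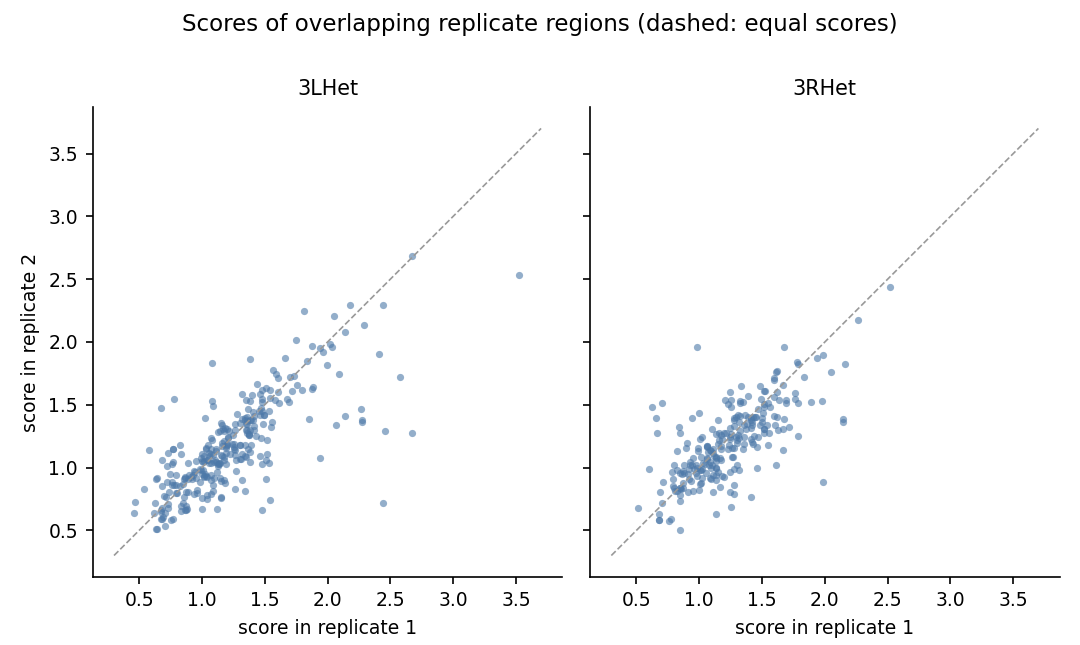
Authors' score of each pair of overlapping regions in replicate 1 (x axis) and replicate 2 (y axis) on 3LHet (290 pairs) and 3RHet (240 pairs), with the dashed line at equal scores. Most points lie near the line, 225 pairs on 3LHet and 187 on 3RHet differing by under 0.25, and the points farthest from it on 3LHet are higher in replicate 1.

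Some strong calls were made in 1 replicate alone. On 3LHet 22 regions of each replicate had no partner, and on 3RHet 21 of each. That is 7.83% and 8.30% of the replicate 1 and 2 regions of 3LHet, and 9.46% and 9.38% of those of 3RHet. Over the whole lists 82.8% and 79.7% of regions had a partner, so unpartnered regions were less frequent on the scaffolds. Those on the scaffolds were narrow, with median widths of 1766 and 1624 bp on 3LHet and 1615 and 1538 bp on 3RHet, and at most 4237 bp. Most were not strong: their median scores in replicates 1 and 2 were 0.86 and 0.79 on 3LHet, below 1.18 and 1.12 for regions with a partner. On 3RHet their medians were 0.94 and 1.03, below 1.20 and 1.18. On 3LHet the top ones were 1983 bp from 29141 to 31123 in replicate 1 (score 3.81) and 2092 bp from 616623 to 618714 in replicate 2 (3.61). The second of replicate 2, 1488 bp from 625181 to 626668, scored 3.53 and was the only unpartnered region of the scaffolds that the combined list did not overlap. On 3RHet the top ones were 1314 bp from 967931 to 969244 in replicate 1 (3.67) and 2061 bp from 1433794 to 1435854 in replicate 2 (2.28). The highest score of 3 of the 4 scaffold and replicate lists therefore belonged to a region absent from the other replicate, the exception being replicate 2 on 3RHet, where the top score was 2.44. The remaining named ones ranged from 1.51 to 1.71 in replicate 1 and reached 1.60 in replicate 2 on 3LHet, and from 1.81 to 2.09 and from 2.04 to 2.24 on 3RHet.

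The combined list held wider regions and more bases than either replicate. It covered 72.2% of 3LHet and 67.2% of 3RHet, with median widths of 4909 and 4581 bp and mean widths of 7349 and 8721 bp. Every base covered in both replicates lay within it on both scaffolds. Both replicates covered 52.3% of 3LHet and 50.5% of 3RHet. A further 12.6% and 10.3% was covered in 1 replicate only, 7.60% and 6.63% in the combined list without any replicate region, and 27.5% and 32.6% lay in no list. Most of the added sequence was not in separate regions: of 194 kb on 3LHet and 167 kb on 3RHet that the combined list added, 64.9% and 56.9% lay within regions that both replicates overlapped, where it extended or bridged their pieces. Regions that neither replicate overlapped held 27.3% and 34.8% of it.

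**Figure D4:**
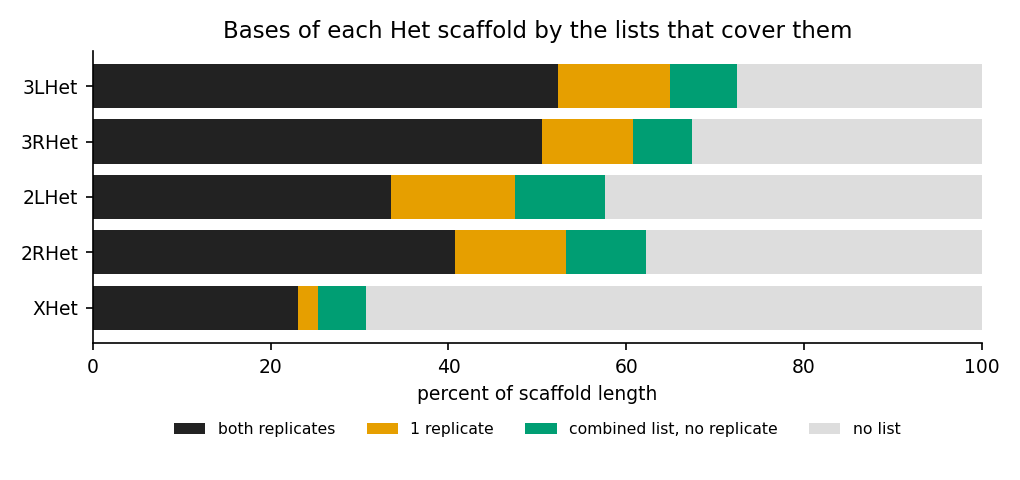
Percentage of the length of 3LHet, 3RHet, 2LHet, 2RHet and XHet covered by regions of both replicates, of 1 replicate, of the combined list without a replicate region, or of no list. 3LHet and 3RHet have 52.3% and 50.5% of their length covered in both replicates, against 40.8% for 2RHet, 33.5% for 2LHet and 23.0% for XHet.

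By region, 180 of 251 on 3LHet, 71.7% (Wilson 95% interval 65.8% to 76.9%), and 126 of 194 on 3RHet, 64.9% (58.0% to 71.3%), were overlapped by both replicates, against 37.6% over the combined list. The difference between the scaffolds was not tested. Of the other Het scaffolds compared, 2RHet had 58.5% (53.0% to 63.9%), 2LHet 51.2% and XHet 27.3% of only 11 regions. The 2RHet interval overlapped that of 3RHet. These intervals give counting error only, over regions that share their libraries, so neither their overlap nor their separation tests a difference between scaffolds. On 3LHet and 3RHet a further 13.1% and 14.9% were overlapped by 1 replicate alone (17.9% over the list), and 15.1% and 20.1% by neither (44.5% over the list). The share overlapped by neither was 21.9% on 2RHet, 31.7% on 2LHet and 63.6% on XHet. With at least 50% of the region covered by each replicate the shares were 65.3% and 59.8%, against 32.0% over the list. The regions of both replicates carried 93.2% and 92.8% of the bases of the combined list on the scaffolds, against 74.7% over the list. This share was 87.8% on 2RHet, 83.8% on 2LHet and 82.1% on XHet.

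Overlap by both replicates went with width. All 63 regions of 10 kb or more on 3LHet and all 51 on 3RHet were overlapped by both replicates, as were 100% of the 386 regions of that width in the combined list, so this was not confined to the scaffolds. Such regions were 25.1% and 26.3% of those on the scaffolds against 8.84% of the list. Of the regions under 2 kb, both replicates overlapped 2 of 52 on 3LHet and 0 of 50 on 3RHet, for which the Wilson interval reaches 7.13%, against 0.993% of the 2215 regions under 2 kb in the combined list. A wider region has more bases at which an overlap can occur, and the narrowest combined region, 1001 bp, is below the narrowest replicate region, 1304 bp. Many combined regions spanned several neighbouring calls of a replicate: 72 of its regions on 3LHet (28.7%) and 57 on 3RHet (29.4%) overlapped 2 or more regions of a replicate, against 13.4% over the list. The most pieces in 1 combined region were 4 on 3LHet, in either replicate, and 7 in replicate 1 and 8 in replicate 2 on 3RHet.

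The combined score was mostly no higher than those of its parts. Among combined regions that overlapped exactly 1 region of each replicate, it was below both replicate scores in 64 of 108 on 3LHet and 42 of 70 on 3RHet, between them in 43 and 28, and above both in 1 and 0. The median difference from the replicate mean was -0.06 on each scaffold.

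Regions that neither replicate overlapped were narrow but included the highest scores of the combined list on both scaffolds. There were 38 on 3LHet and 39 on 3RHet, with median widths of 1143 and 1373 bp. Their median scores were 0.72 and 0.89, below the 1.12 and 1.18 of regions overlapped by both replicates. The top one on 3LHet was 1006 bp from 1215685 to 1216690, with a score of 3.53. The top one on 3RHet was 1009 bp from 1176757 to 1177765, with a score of 3.36, the same value as the second of 3LHet, which was 1001 bp from 27401 to 28401. The third on 3LHet was 1001 bp from 2553505 to 2554505 (score 2.82), the last region of that scaffold, and on 3RHet the next ones ran from 2054216 to 2055216 (2.36) and from 1607636 to 1608640 (2.26). By contrast, no region overlapped by both replicates scored above 2.08 on 3LHet or 1.91 on 3RHet. This order was not particular to the scaffolds. Over the whole combined list the top scores were 4.26 for regions overlapped by neither and 3.46 for those overlapped by both. A score over 2 was found in 7 of the 38 and 5 of the 39 regions overlapped by neither, and in 2 of 180 and 0 of 126 overlapped by both, against 6.83% of the combined list. The score of 3.53 occurred in 9 regions of the whole combined list and that of 3.36 in 10. Of the 77 regions that neither replicate overlapped, 39 had a score found in another region of the list (50.6%), against 8 of 306 overlapped by both (2.61%) and 38.2% of the whole list. The whole-list shares of 6.83% and 38.2% mix all overlap classes. Shares among the 1942 list regions that neither replicate overlapped were not computed, so whether the scaffolds differ from these is not known. Read counts were not used here, so whether few reads underlie these repeated values was not tested.

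**Figure D5:**
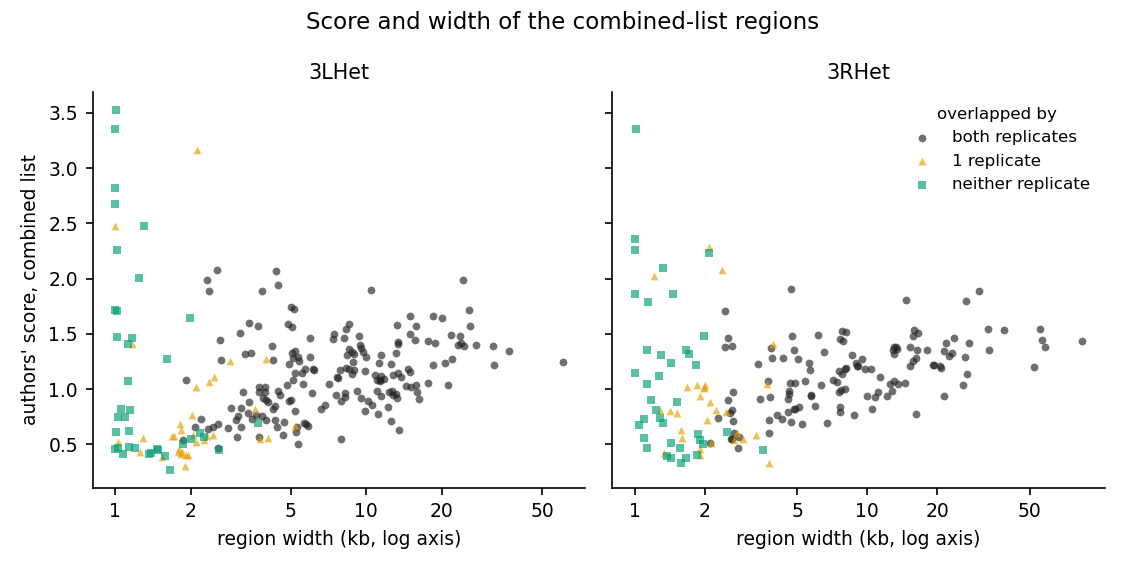
Authors' score against width (log axis) of the 251 combined-list regions on 3LHet and the 194 on 3RHet, by the replicates that overlap them. Regions overlapped by both replicates spread from about 2 kb upward with scores up to 2.08, and regions overlapped by neither sit at the narrow end, with scores up to 3.53 on 3LHet and 3.36 on 3RHet.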

How the data were processed

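Chromatin of Oregon-R embryos was immunoprecipitated for HP4 and sequenced in 2 ChIP and 2 input libraries, grouped by their titles. Per the submitters' processing notes, the aligner was Bowtie 0.12.7. The authors deposited 3 lists of significantly enriched regions, in FlyBase release 5 coordinates per the file headers, with 1 score per region. The caller, its threshold, the scale of the score, the handling of reads that fit several positions and how the combined list was made are not stated in the labels or the file headers. Starts and ends are as deposited, except that 2 starts at 0 were read as the first base of their sequence. Neither was on 3LHet or 3RHet, where the lowest start was 5. Scaffold lengths come from the file headers.

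Regions on 3LHet and 3RHet were taken by sequence name. Neither scaffold had overlapping neighbours within a list. Coverage is bases in regions divided by scaffold length. Overlap means at least 1 shared bp. Shares have Wilson 95% intervals, for counting error only. Python 3.11.15, numpy 2.4.6, scipy 1.17.1 and matplotlib 3.10.9 were used, and the interval functions were tested on simulated lists, where 8 of 8 quantities were recovered exactly. Background shares are over whole lists.

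Named regions are, per scaffold, the 5 widest and 5 highest-scoring combined regions that both replicates overlapped, the 3 highest-scoring that neither did, the 3 highest-scoring of each replicate without a partner, the 3 longest stretches free of all lists, and the first and last region. Windows, joined blocks and 1 further free stretch of 3RHet were named after their values were seen. The members and rules were chosen with earlier results of these data known. The gene table at hand is of release 6 and was not used, and no sequence of release 5 was used. The alternatives were other denominators, score and width filters, stricter overlap, joining of close regions, the combined list, and leaving out either replicate.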

Additional observations from a re-analysis of the deposited data

How the results depend on the processing

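No paired analysis was possible because no result comes from a test and the input libraries, which share the replicate numbers, gave no values here; differences between the scaffolds are taken within each library. Coverage of 3LHet and 3RHet moved to 33.4% and 36.1% in the upper 50% by score, 60.1% and 56.9% with regions under 1 kb apart merged, and 72.2% and 67.2% in the combined list. Over the span of the regions of any list 3RHet reached 57.3%, over that of the replicate lists 59.3%, and outside free stretches of 20 kb or more the values were 61.6% and 66.3%. The difference, 3LHet minus 3RHet, of 2.94 points turned to -2.78 in the upper 50% by score, to -0.67 over the replicate span and to -4.71 outside the free stretches. It was 3.18 after merging, 1.34 over the span of any list and 4.98 in the combined list. Without replicate 1 or replicate 2 in turn, coverage ran from 57.9% to 59.2% on 3LHet and from 55.1% to 56.1% on 3RHet, and the difference from 2.80 to 3.08. The Jaccard index of covered bases between replicates was 0.81 on 3LHet and 0.83 on 3RHet, moving to 0.638 and 0.732 in the upper 50% by score and to 0.817 and 0.843 after merging. The share of combined regions overlapped by both replicates moved on 3LHet to 65.3% with 50% covered, and on 3LHet and 3RHet to 85.8% and 76.1% in the upper 50% by score and to 89.4% and 87.5% from 2 kb upward. Overlap with a single replicate, leaving out the other, gave 78.1% to 78.5% and 71.1% to 73.7%. The span of the replicate lists, the free stretches and the single-replicate overlap were chosen after seeing the data. The changed denominators account for the shifts with span and free stretches; the other causes were not tested. In windows of 250 kb the densest window was 76.4% on 3LHet and 71.7% on 3RHet. Depth is unknown, so it sets no stated limit here.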
